A study of Mus musculus with 48 samples.

Results

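The mRNAs described here encode the lysosome and the autophagy machinery that feeds it: 54 genes listed by symbol, among the 50600 mouse genes counted in mPDAC cells. They comprise the acid hydrolases and carriers of the lysosomal lumen, the proteins of its membrane, the vacuolar proton pump (V-ATPase) that acidifies it, the autophagy genes that form and load autophagosomes, and the transcription factors Tfeb and Tfe3. All 54 symbols matched a counted gene, and all 54 were among the 13889 genes left after removal of genes with low counts.

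Lysosomes degrade material that arrives by endocytosis or by autophagy, in which a membrane labelled with Atg8-family proteins engulfs cytoplasmic cargo and fuses with the lysosome. Hydrolases and lysosomal membrane proteins are made at the endoplasmic reticulum, whereas the cytosolic domain of the V-ATPase (V1) and most autophagy proteins are made on free ribosomes. Tfeb and Tfe3 are held in the cytoplasm by the kinase mTORC1 and, once in the nucleus, bind promoters of lysosomal and autophagy genes. Pancreatic ductal adenocarcinoma is a tumour known for its reliance on this pathway.

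The cells are mPDAC, a mouse pancreatic ductal adenocarcinoma line whose labels give the background FVB/N x C57BL6 and an age of 8 weeks. The N6L cultures (1, 2 and 3) received 50 µM of N6L, a pseudopeptide antagonist of nucleolin, for 48 h, and the non-treated cultures (1, 2 and 4) received none. Both were exposed to emetine before lysis. From each of the 6 cultures, 1 lysate freed of nuclei and mitochondria gave a cytoplasmic library and, through a sucrose gradient, a library from the pooled polysomal fractions. Levels are counts per 1000000 library counts after TMM scaling (CPM), and groups of 3 values follow the order of the culture numbers.

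The 12 libraries held 19519911 to 44972333 counts. All come from 1 line, and nothing in the labels says that its cultures were started independently, so the p-values measure the spread between these cultures. Of 7 ductal epithelial markers 6 reached 1 CPM or more, with a summed level of 6424 to 10520 CPM over the libraries, while Epcam stayed at or below 0.301 CPM. Of 7 markers of macrophages or other leukocytes, which are rich in lysosomes, 3 reached 1 CPM: Cd14 at 54.04 to 118 CPM, Mrc1 at 9.56 to 40.2 CPM and Csf1r at 0.583 to 2.00 CPM. The other 4 (Ptprc, Adgre1, Itgam and Lyz2) stayed at or below 0.0907 CPM. The summed level of the 7 was 85.7 to 95.2 CPM in non-treated and 90.7 to 108.8 CPM in N6L cytoplasm, and 89.5 to 104.0 and 93.8 to 129.9 CPM in the polysomes. Its part in the results was not tested. Since each library is a bulk sample and scaled to its own total, fewer cells with a given mRNA and less of it per cell cannot be told apart, and a change shared by all mRNAs does not appear.

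Promoter sequences are shown because the motif bound by Tfeb and Tfe3 was defined in genes of this pathway. RefSeq windows (GRCm38.p6, from 250 bases before to 50 after a start site) matched 44 of the 54 genes. The palindrome TCACGTGA, at the centre of the element that both factors bind, was searched on both strands together with its core CACGTG, which lies within it. The longer palindrome stood in 7 of the 44 genes (15.9%), against 1.12% of all 27025 genes with a window, and in 13.5% of their 52 windows, against 0.974% of all 32851 windows. The core stood in 15 of the 44 genes (34.1%, against 8.09% of all genes) and in 28.8% of their windows (against 7.15% of all windows), and the window of Lamp1, the main glycoprotein of the lysosomal membrane, held 4 copies. The list was drawn from known lysosomal genes, so these shares describe it and test nothing. The 7 genes are printed below in the direction of the gene, with TCACGTGA in capitals.
Ctsa (chr2:164833752-164833775, plus strand): gcaaactgTCACGTGAtgcagatg
Ctsa (chr2:164833769-164833792, plus strand): gcagatgcTCACGTGAccagagct
Ctsd (chr7:142387911-142387934, minus strand): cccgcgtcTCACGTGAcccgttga
Gla (chrX:134601185-134601208, minus strand): gatctcggTCACGTGAgcaactct
Gla (chrX:134601218-134601241, minus strand): gcgattgaTCACGTGAgcatctac
Mcoln1 (chr8:3500465-3500488, plus strand): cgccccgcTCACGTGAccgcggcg
Atp6v0d1 (chr8:105566053-105566076, minus strand): tactgcggTCACGTGAgacgcggt
Atp6v0e (chr17:26676390-26676413, plus strand): cgcgccgaTCACGTGAgcctctgt
Atp6v1a (chr16:44139376-44139399, minus strand): tttttaaaTCACGTGAtaggctta
The centre of the palindrome lay 191 and 224 bases upstream of the start site of Gla, 128 upstream in Atp6v1a, 95 upstream in Ctsd and 42 upstream in Mcoln1. In Ctsa, Atp6v0d1 and Atp6v0e it lay within 9 bases of the start site. Distances are from the start site of the RefSeq window, which need not be the outer end of the gene in the GENCODE annotation.

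Per kilobase of the longest protein-coding transcript, the members' mean level over the 12 libraries ranged from 1.82 CPM per kb for Npc1, the cholesterol exporter of the lysosomal membrane, to 417 CPM per kb for Sqstm1, the receptor that ties ubiquitinated cargo to the autophagosome. Their median was 16.3 CPM per kb, against 7.11 for all genes tested. The Atg8 family was high, from 20.7 CPM per kb for Gabarapl2 to 283 for Gabarap, as were Cd63, a membrane tetraspanin, at 174 and the pump subunit Atp6v1f at 224. The soluble hydrolases and carriers other than the proteases were lower, with a median of 6.10 CPM per kb.

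In the cytoplasm, 6 of the 54 mRNAs (11.1%) differed between N6L and non-treated cultures at an adjusted p under 0.05, against 28.3% of all genes tested. The p-values come from the quasi-likelihood test of edgeR, adjusted by Benjamini and Hochberg's method over all genes. Gla, Lipa, Ulk1 and Atp6v1b2 rose (4 members, against 14.5% of all genes called higher), and the V1 subunits Atp6v1f and Atp6v1g1 fell (2 members, against 13.8% called lower). The median log2 difference was 0.01 for the members and 0.04 for all genes, and 28 members lay above 0 (51.9%, against 52.8% of all genes). The values of the groups did not overlap for 18 members (33.3%), against 54.9% of all genes.

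Gla (chrX:134588149-134601125, minus strand, build GRCm38) encodes alpha-galactosidase A, which removes terminal galactose from glycolipids. It stood at 7.84, 7.03 and 6.46 CPM in non-treated and at 13.0, 11.2 and 12.6 CPM in N6L cytoplasm. Every N6L culture was above every non-treated one, with a log2 fold change of 0.79 ± 0.18 (SE, n = 3 against 3, edgeR adjusted p = 0.00697), and the call held whichever culture was left out. Lipa (chr19:34492318-34527474, minus strand) is the acid lipase that hydrolyses cholesteryl esters and triglycerides in the lysosome. It stood at 15.2, 17.8 and 17.4 CPM against 29.7, 25.7 and 22.1 CPM. The groups did not overlap, and the log2 fold change was 0.62 ± 0.20 (SE, edgeR adjusted p = 0.0311), but this call held in only 1 of the 6 fits that left out a culture. None of the other hydrolases and carriers passed the test in the cytoplasm. Their log2 differences ran from -0.33 for the protease Ctsz to 0.50 for the acid ceramidase Asah1.

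The V1 domain, the part of the pump that hydrolyses ATP, did not move as a block. Atp6v1f lies at chr6:29467718-29470512 and Atp6v1g1 at chr4:63544772-63550750, both on the plus strand. Atp6v1f stood at 168, 164 and 215 CPM in non-treated and at 98.95, 101 and 113 CPM in N6L cytoplasm, a log2 fold change of -0.80 ± 0.20 (SE, edgeR adjusted p = 0.0101). Atp6v1g1, which with the E subunit forms the peripheral stalks, stood at 179, 134 and 146 CPM against 80.9, 90.3 and 89.7 CPM, a log2 fold change of -0.81 ± 0.20 (SE, edgeR adjusted p = 0.0117). Neither gene's groups overlapped. Atp6v1b2, a subunit of the catalytic hexamer, went the other way, from 129, 155 and 127 CPM to 190.0, 185 and 182 CPM, a log2 fold change of 0.44 ± 0.15 (SE, edgeR adjusted p = 0.0381). The remaining 5 V1 mRNAs did not pass, with log2 differences between -0.07 and 0.59, and neither did any of the 5 mRNAs of the membrane domain V0 or the 2 of the accessory subunits. Atp6v0e came closest, at 99.5, 86.7 and 99.0 CPM against 64.0, 71.6 and 67.6 CPM, a log2 difference of -0.49 ± 0.18 (SE, edgeR adjusted p = 0.0559). The cytoplasmic log2 difference and transcript length had a Spearman rho of 0.32 over the members and 0.50 over all genes. The part of length in the falls was not tested. Atp6v1f has the shortest of the members' transcripts, and with an offset for transcript length and GC content its log2 difference was -0.16 (edgeR adjusted p = 0.306) and that of Atp6v1g1 -0.38 (edgeR adjusted p = 0.107).

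Of the autophagy genes, Ulk1 (chr5:110784488-110810097, minus strand), the kinase that starts autophagosome formation, rose from 36.0, 34.1 and 29.5 CPM to 52.7, 43.1 and 46.4 CPM in the cytoplasm. The groups did not overlap (log2 fold change 0.51 ± 0.16, SE, edgeR adjusted p = 0.0286). With the length and GC offset the difference was 0.30 (edgeR adjusted p = 0.0593). Map1lc3b, the LC3 form most used as an autophagosome marker, stood at 155, 176 and 143 CPM against 216, 204 and 221 CPM. Its log2 difference of 0.43 ± 0.17 (SE, edgeR adjusted p = 0.0713) did not pass, although the groups did not overlap. Gabarapl1 behaved likewise, at 176, 162 and 133 CPM against 207, 209 and 213 CPM (log2 difference 0.42 ± 0.16, SE, edgeR adjusted p = 0.0684). The other Atg8 mRNAs had log2 differences of -0.23 ± 0.25 for Map1lc3a, -0.20 ± 0.18 for Gabarap and -0.13 ± 0.19 for Gabarapl2, all with adjusted p above 0.05 by the same edgeR test. With the length and GC offset Map1lc3a turned to 0.52 (edgeR adjusted p = 0.00785) and Gabarap and Gabarapl2 also turned positive, so no direction is given for these mRNAs.

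The transcription factors themselves did not pass the test in any of the 5 comparisons as fitted without a block. With the culture block, Tfeb passed for polysomes against cytoplasm under N6L (log2 ratio 0.47, edgeR adjusted p = 0.0374), and with the block and the length and GC offset the ratio was -0.15 (edgeR adjusted p = 0.243). Tfeb stood at 27.6, 31.8 and 40.4 CPM in non-treated and at 28.4, 27.9 and 31.1 CPM in N6L cytoplasm, a log2 difference of -0.19 ± 0.26 (SE, edgeR adjusted p = 0.598). Tfe3 stood at 56.9, 55.4 and 49.4 CPM against 58.1, 48.9 and 54.4 CPM, and its log2 difference was 0.00 at 2 decimals (SE 0.16, edgeR adjusted p = 0.988). Both sets overlapped. Mcoln1, the lysosomal calcium channel, was at 17.7, 17.7 and 14.5 CPM against 15.99, 12.9 and 13.0 CPM (log2 difference -0.26 ± 0.17, SE, edgeR adjusted p = 0.272). Sqstm1, by far the most abundant of the 54, was at 1171, 1300 and 683 CPM against 1132, 870 and 937 CPM (log2 difference -0.10 ± 0.27, SE, edgeR adjusted p = 0.792). Non-treated culture 4 was the lowest of the 6 for Sqstm1 in both fractions, with 732 CPM in its polysomes against 1295 and 1596 CPM in the other non-treated polysomes.

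The number of cytoplasmic calls rested on single cultures. It was 1 without N6L culture 2 (9.24% of all genes then called), 2 without non-treated culture 1 (16.0%), and 3 without non-treated culture 4 (15.5%) or without N6L culture 1 (23.0%). Of these 6 fits, Atp6v1f was called in 5, Atp6v1g1 in 4, and Ulk1 and Atp6v1b2 in 2 each. DESeq2 called 8 members against 33.1% of all genes, and a fit of the cytoplasmic libraries alone called 13 against 42.2%. With the length and GC offset 9 members were called, 7 higher and 2 lower, against 27.1% of all genes. Only 3 of the 6 calls without the offset were among these 9. Atp6v1f, Atp6v1g1 and Ulk1 were not.

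**Figure D1:**
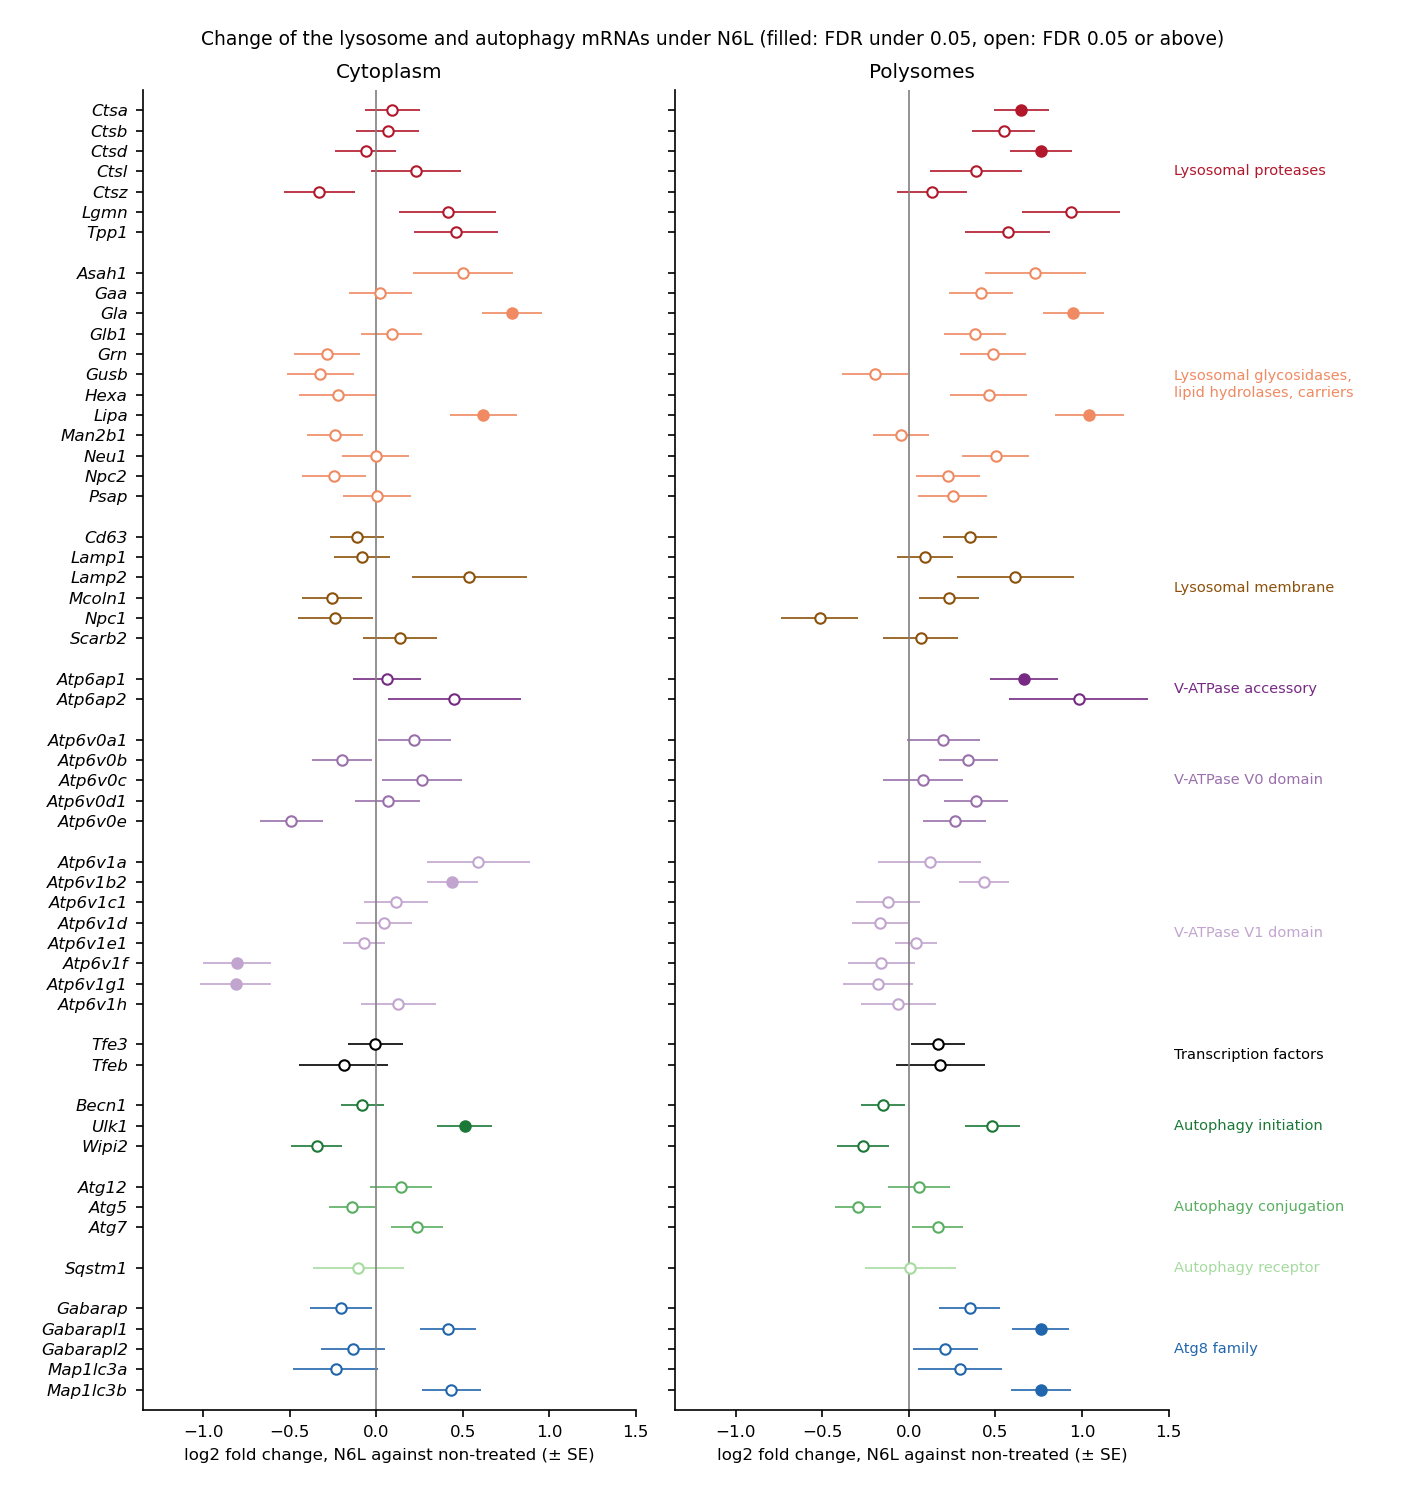
Log2 fold change of each of the 54 mRNAs, N6L against non-treated, in the cytoplasm (left) and in polysomes (right), grouped by role, with bars of 1 SE from the edgeR fit and filled points for an adjusted p under 0.05. In the cytoplasm 4 points are filled above 0 and 2 below, whereas in the polysomes all 7 filled points lie above 0 and 43 of the 54 are positive.

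In the polysomes, 7 of the 54 mRNAs (13.0%) passed the test, against 9.67% of all genes, and all 7 were higher under N6L, against 6.01% of all genes called higher. They were Lipa, Gla, the proteases Ctsd and Ctsa, the Atg8 genes Map1lc3b and Gabarapl1, and the V-ATPase accessory subunit Atp6ap1. The median log2 difference of the members was 0.26, against 0.00 for all genes, and 43 of the 54 (79.6%) lay above 0, against 50.1% of all genes. The groups did not overlap for 20 members (37.0%, against 25.6% of all genes), and N6L lay above in 17 of them (31.5%, against 13.7%).

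Lipa stood at 9.385, 12.6 and 9.03 CPM in non-treated and at 25.9, 21.5 and 16.6 CPM in N6L polysomes. The lowest N6L value exceeded the highest non-treated one, and the log2 fold change was 1.04 ± 0.20 (SE, edgeR adjusted p = 0.00729). Gla stood at 6.68, 6.745 and 4.70 CPM against 12.5, 11.36 and 11.0 CPM, again without overlap (log2 fold change 0.95 ± 0.18, SE, edgeR adjusted p = 0.00647). Gla and Lipa were thus called higher in both fractions, Lipa in the cytoplasm with the limit given above.

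The remaining 5 were called in the polysomes and not in the cytoplasm, and none of them passed the test of the difference between the fractions given below. Ctsd (chr7:142375911-142388038, minus strand), the main aspartic protease of the lysosome, stood at 27.9, 32.7 and 22.7 CPM in non-treated and at 45.3, 41.7 and 54.3 CPM in N6L polysomes (log2 fold change 0.76 ± 0.18, SE, edgeR adjusted p = 0.0189). Ctsa (chr2:164832873-164841032, plus strand), the protective protein of beta-galactosidase and neuraminidase, stood at 35.05, 45.4 and 35.2 CPM against 54.9, 57.3 and 69.4 CPM (log2 fold change 0.65 ± 0.16, SE, edgeR adjusted p = 0.0220). The groups of both proteases lay apart in the polysomes, while in the cytoplasm Ctsd read 39.5, 40.8 and 41.4 CPM against 46.8, 33.6 and 36.5 CPM. Gabarapl1 stood at 172, 205 and 188 CPM against 272, 294 and 393 CPM (log2 fold change 0.76 ± 0.16, SE, edgeR adjusted p = 0.0130). Map1lc3b stood at 193, 205 and 192 CPM against 257.5, 313 and 429.5 CPM (log2 fold change 0.76 ± 0.17, SE, edgeR adjusted p = 0.0163). For both Atg8 mRNAs N6L culture 3 was the highest library of the 12. Atp6ap1, which takes part in pump assembly and is given in full although the rule for named genes did not pick it, stood at 25.1, 30.45 and 18.03 CPM against 44.9, 37.2 and 34.6 CPM (log2 fold change 0.67 ± 0.20, SE, edgeR adjusted p = 0.0482).

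By role, the 25 mRNAs of lumenal or membrane lysosomal proteins had a median polysomal log2 difference of 0.42, and 22 of them lay above 0. All 7 proteases were positive, from 0.13 for Ctsz to 0.94 for Lgmn, the asparaginyl endopeptidase, which just missed the limit (edgeR adjusted p = 0.0517). Npc1 had the lowest log2 difference of the members, -0.51 ± 0.22 (SE, edgeR adjusted p = 0.157). The 7 mRNAs of the V0 domain and the accessory subunits were also all positive, with a median of 0.34, whereas the 8 V1 mRNAs had a median of -0.09 (0.02 with the length and GC offset) and the 14 autophagy genes, Tfeb and Tfe3 included, one of 0.17. These medians describe the groups and were not tested against each other.

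The polysomal calls, too, depended on single cultures. No member passed without N6L culture 2 (1.04% of all genes then called), 1 without non-treated culture 1 (1.44%) and 3 without non-treated culture 4 (4.44%), and 8 passed without non-treated culture 2 (6.77%). Of the 6 fits, Gla was called in 5, Lipa and Gabarapl1 in 4, Ctsd and Map1lc3b in 3, Ctsa in 2 and Atp6ap1 in 1. A fit of the polysomal libraries alone called Lipa only (2.46% of all genes), while DESeq2 called 11 members, all higher, against 14.6% of all genes called and 8.09% called higher. With the length and GC offset 12 members were called higher and 1 lower, against 20.1% of all genes.

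Of the 7 genes with TCACGTGA in the promoter window, 7 had a polysomal log2 difference above 0 and 3 (Ctsa, Ctsd and Gla) were called, with a median of 0.39, where 50.1% of all genes lay above 0 and 9.67% were called. Of all 15 genes with CACGTG, these 7 included, 14 lay above 0 and the same 3 were called, with a median of 0.38. Of the 29 matched genes without even CACGTG, 24 lay above 0 and 4 were called, with a median of 0.23. In the cytoplasm 1 of the 7 and 3 of the 29 were called, against 28.3% of all genes, and the medians were 0.07 and 0.00. The difference between these sets of genes was not tested.

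**Figure D2:**
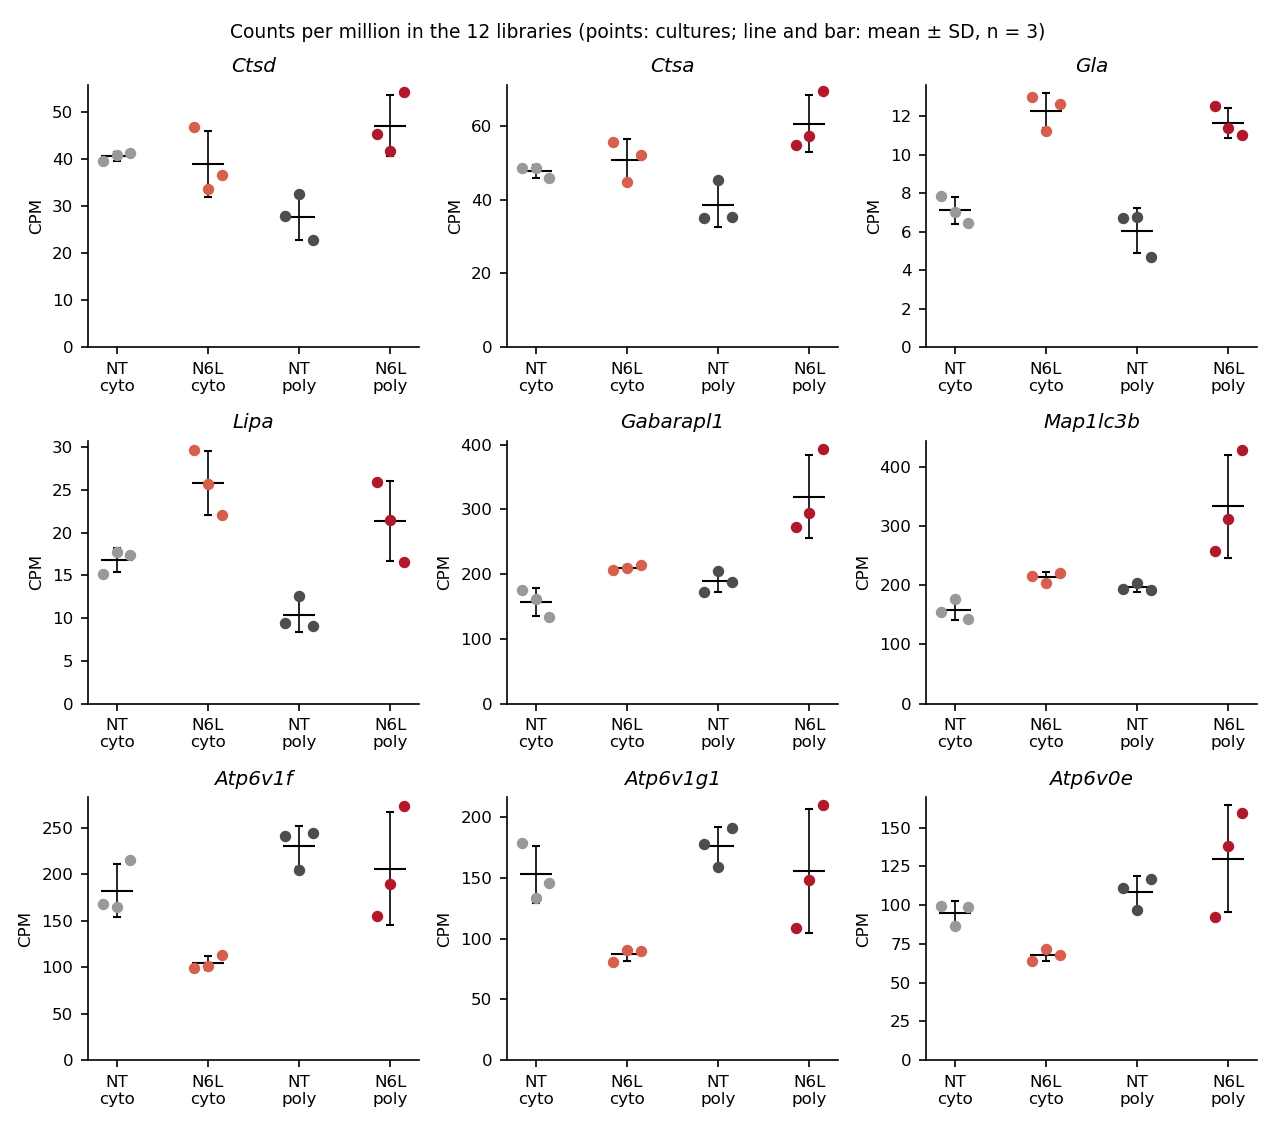
CPM of 9 mRNAs in every library, with points for the cultures and lines and bars for the mean ± SD (n = 3) in non-treated (NT) and N6L cytoplasm (cyto) and polysomes (poly). Ctsd and Ctsa differed in the polysomes and overlapped in the cytoplasm, Gla and Lipa lay apart in both fractions, Atp6v1f and Atp6v1g1 fell in N6L cytoplasm and overlapped in the polysomes, and Atp6v0e (adjusted p = 0.0559 by edgeR in the cytoplasm) overlapped in the polysomes as well.

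The translational index (TI) is the log2 ratio of polysome to cytoplasm under N6L less the same ratio without it, and asks whether an mRNA moved towards or away from polysomes for its amount in the cytoplasm. No member passed the test by edgeR or by DESeq2, and neither did any other gene (0.0% of all genes by both). Without adjustment 10 members (18.5%) had a p under 0.05 by edgeR, against 7.73% of all genes, and 12 by DESeq2 (8.88% of all genes). All 10 had a positive index, against 3.18% of all genes with such a p and a positive index. The count of members was 4 with the length and GC offset, 6 with library totals, 16 under the culture block and 3 to 11 with each culture left out. Shares of all genes were not taken for these fits. Index and transcript length had a Spearman rho of -0.50 over the members and -0.55 over all genes. The median index was 0.27 for the members and 0.01 for all genes, and 40 of the 54 (74.1%) were above 0, against 50.7% of all genes. By promoter window it was 0.49 for the 7 genes with TCACGTGA, 0.32 for the 15 with CACGTG and 0.33 for the 29 without CACGTG. The difference between these sets was not tested. The ratios of the 2 treatments did not overlap for 20 members (37.0%, against 29.7% of all genes), with N6L above in 19 of them (35.2%, against 15.3%). In simulated data with 200 of 13889 genes changed, edgeR recovered 16% of the genes given an index of 1 on the log2 scale. In the cytoplasm and between the fractions under N6L far more genes than that were called here, so this rate need not hold for these data.

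Of the members, Ctsd had the smallest p for the index. Its log2 ratio was -0.50, -0.32 and -0.86 in the non-treated cultures and -0.05, 0.31 and 0.57 in the N6L cultures, an index of 0.82 ± 0.25 (SE, edgeR adjusted p = 0.555). Grn, the precursor of the lysosomal granulins, had ratios of -0.79, -0.53 and -1.42 against -0.16, 0.04 and -0.18, an index of 0.77 ± 0.27. Ctsa had ratios of -0.47, -0.09 and -0.38 against -0.02, 0.35 and 0.41, an index of 0.56 ± 0.22. In these 3 genes of the lysosomal lumen, the ratios lay below 0 without N6L and were higher in every N6L culture. Atp6v0e started from a positive ratio, 0.16, 0.16 and 0.24, and reached 0.53, 0.95 and 1.24 (index 0.75 ± 0.26). The adjusted p of Atp6v0e, Grn and Ctsa was 0.555 as well by edgeR.

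Within the lysosomal genes the index was one-sided. It was positive for all 7 proteases, with a median of 0.48, and for all 12 glycosidases, lipid hydrolases and carriers, with a median of 0.34. It was negative for Npc1 (-0.28) and for Scarb2 (-0.07), the carrier receptor of beta-glucocerebrosidase, alone among the 25 lumenal and membrane proteins. It was positive for all 5 Atg8 mRNAs, between 0.33 and 0.55. With the length and GC offset 6 of the 7 proteases, 11 of these 12 genes and 4 of the 5 Atg8 genes stayed positive. With it the index of Npc1 (0.04) and of Scarb2 (0.21) turned positive. Among the 25, that of Cd63 (-0.08), Ctsz (-0.04) and Gusb (-0.0066) turned negative. The 3 conjugation genes Atg5, Atg7 and Atg12, which attach Atg8 proteins to the membrane, lay between -0.15 and -0.07. With the offset Atg12 turned to 0.27, while Atg5 (-0.13) and Atg7 (-0.05) stayed negative. The V1 genes spread from -0.47 for Atp6v1a, the catalytic subunit, to 0.64 for Atp6v1f. With the offset these 2 read -0.23 and 0.10, and the V1 genes ran from -0.26 for Atp6v1h to 0.37 for Atp6v1g1. No single index among these passed the test.

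In the non-treated cultures alone, the mRNAs of lumenal and membrane lysosomal proteins had low ratios of polysome to cytoplasm, with a median of -0.36, whereas the median of the autophagy and transcription factor genes was 0.21 and that of all genes 0.03. No member was called by edgeR, where 0.209% of all genes were, and DESeq2 called 1 (1.97% of all genes). Without adjustment 13 members (24.1%) had a p under 0.05, against 13.4% of all genes, and all 13 were lower in polysomes, against 9.74% of all genes lower with such a p. Of these 13, 11 encode lumenal or membrane lysosomal proteins and the other 2 are the membrane-bound accessory subunits Atp6ap1 and Atp6ap2. The lowest fitted log2 ratios were those of Atp6ap2 (-1.25 ± 0.40, SE), of Lamp2, a membrane glycoprotein needed for fusion with autophagosomes (-1.002 ± 0.34), of Grn (-0.88 ± 0.19) and of Tpp1, a tripeptidyl peptidase (-0.74 ± 0.25). Of the 54 members 27 had a ratio above 0, against 53.7% of all genes. These were 4 of the 25 lumenal and membrane mRNAs (Npc2, Cd63, Neu1 and Gusb), compared with 13 of the 14 autophagy and transcription factor genes and 6 of the 8 V1 genes. With the length and GC offset 1 of the 25 was above 0 and their median was -0.45. The adjusted p of Grn was 0.0934, the smallest of the members.

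The same order was present in each culture. The median log2 ratio of the 25 lumenal and membrane mRNAs was -0.44, -0.18 and -0.55 in the non-treated cultures, while that of the 14 autophagy genes was 0.17, 0.22 and 0.29, and the medians over all genes stayed between -0.02 and 0.06. Under N6L the lumenal and membrane median was -0.13, 0.04 and -0.06 and the autophagy median 0.19, 0.32 and 0.47. The lumenal and membrane medians of the treatments did not overlap, and non-treated culture 2 was the nearest to the N6L cultures. When the fractions of each lysate were paired by a culture block, 3 members were called in the non-treated cultures (Grn, Lamp2 and Lipa, all lower), against 1.46% of all genes. With the block and the length and GC offset, 14 were called, 12 of them lower, against 4.03% of all genes.

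**Figure D3:**
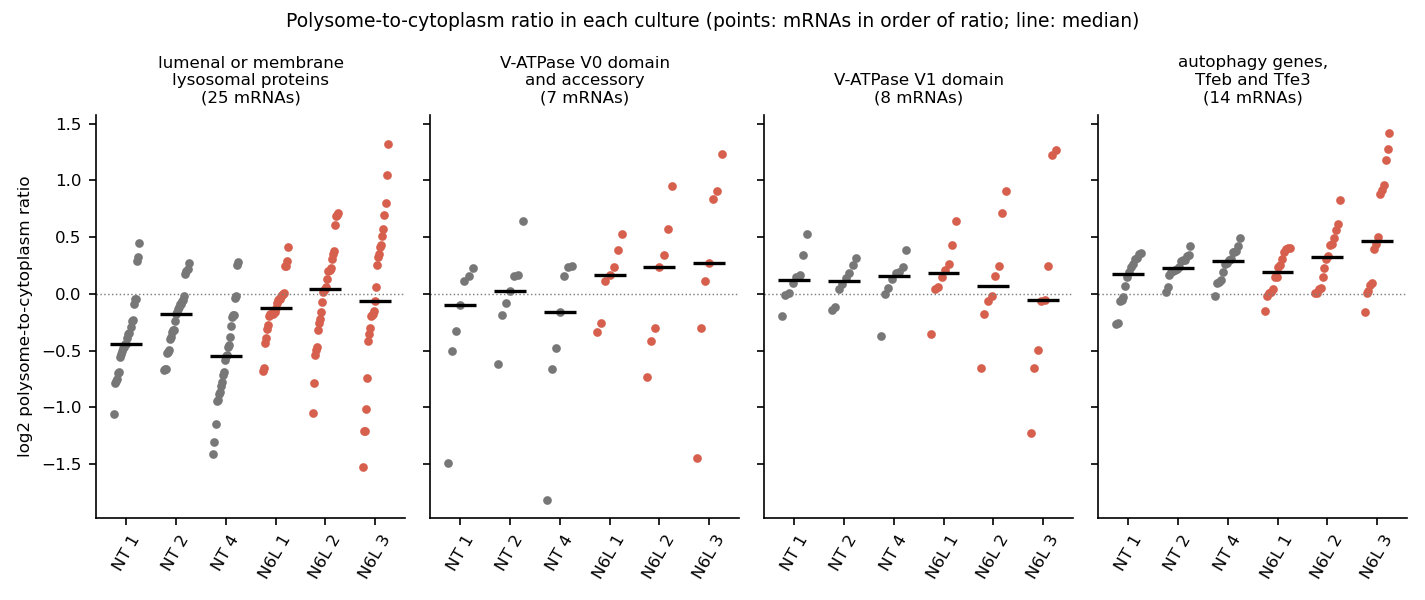
Log2 polysome-to-cytoplasm ratio of every member in each of the 6 cultures, split into 25 lumenal or membrane lysosomal mRNAs, 7 V0 and accessory, 8 V1 and 14 autophagy, Tfeb and Tfe3 mRNAs, with a line at the median. The lumenal and membrane medians lie at -0.44, -0.18 and -0.55 in non-treated cultures and between -0.13 and 0.04 in N6L cultures.

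In the N6L cultures, 14 members (25.9%) differed between polysomes and cytoplasm, against 39.0% of all genes. Of the 14, 12 were higher in polysomes, against 18.4% of all genes, and 2 were lower, against 20.6%. All 5 Atg8 mRNAs were among those higher, of which Gabarapl2 alone was still called with the length and GC offset. The others were the pump subunits Atp6v0b, Atp6v0e, Atp6v1f and Atp6v1g1, and Cd63, Npc2, which carries cholesterol in the lumen, and Neu1, the lysosomal sialidase. Npc1 and Lamp2 were lower, and neither call held with that offset.

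Gabarap had log2 ratios of 0.40, 0.83 and 1.28 in the N6L cultures, a fitted ratio of 0.88 ± 0.18 (SE, edgeR adjusted p = 0.00507). Map1lc3a had 0.40, 0.56 and 1.42 (0.88 ± 0.25, SE, edgeR adjusted p = 0.0144). Gabarapl2 had 0.37, 0.44 and 1.18 (0.70 ± 0.19, SE, edgeR adjusted p = 0.0117). In these mRNAs, as in Map1lc3b at 0.25, 0.62 and 0.96 and Gabarapl1 at 0.40, 0.49 and 0.88, N6L culture 3 had the highest ratio. In the non-treated cultures the same 5 fitted ratios were also positive, from 0.26 to 0.36, and did not pass the test. Npc1 read -0.65, -0.79 and -1.52 in the N6L cultures (-0.93 ± 0.22, SE, edgeR adjusted p = 0.00753) and Lamp2 read -0.68, -1.05 and -1.21 (-0.92 ± 0.33, SE, edgeR adjusted p = 0.0404). Npc1 and Lamp2 were low in non-treated polysomes as well, at -0.65 ± 0.22 and -1.002 ± 0.34.

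Under the culture block the count rose to 22, 16 higher and 6 lower, against 53.7% of all genes. With the block and the length and GC offset it was 19, 9 higher and 10 lower, against 31.9% of all genes. In that fit the 9 higher were Becn1, Atg12, Wipi2, Atp6v1d, Atp6v0e, Npc2, Ctsl, Gabarapl2 and Map1lc3b (0.37, edgeR adjusted p = 0.0235). The 10 lower were Npc1 (-0.40, edgeR adjusted p = 0.0273), Psap, Lamp1, Tpp1, Grn, Gaa, Ctsz, Atp6v0b, Atp6v0c and Atp6v1e1. Without block or offset the count was 4 without N6L culture 3 (11.7% of all genes) and 5 without N6L culture 2 (8.22%).

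Transcript length moved with these ratios. Across all 13867 genes with a length, the N6L log2 ratio and the log2 length had a Spearman rho of -0.63, and across the 54 members one of -0.58, both over genes that share the same libraries and so given as a description. The rho over the members was -0.56, -0.54 and -0.54 in the N6L cultures and -0.35, -0.33 and -0.29 in the non-treated cultures. The 14 members with a transcript under 2 kb had a median N6L ratio of 0.59, close to 0.53 for all genes of that length, the 30 members of 2 to 4 kb one of 0.04, against 0.05, and the 10 members over 4 kb one of -0.16, against -0.58. With the offset for length and GC content the members' median fell from 0.14 to -0.09, and that of all genes from 0.03 to -0.08. Then 10 members were called, 7 higher and 3 lower, against 16.6% of all genes, and 3 of the 14 calls without the offset were among them. Atp6v0e (1.14, edgeR adjusted p = 0.00695), Npc2 (0.71, edgeR adjusted p = 0.0111) and Gabarapl2 (0.56, edgeR adjusted p = 0.0487) were still called. The other 11 were not. Calls gained with the offset were Atg12, Becn1, Atp6v1d and Wipi2, higher, and Ctsz, Lamp1 and Psap, lower. Of the Atg8 mRNAs, Map1lc3b read 0.38 (edgeR adjusted p = 0.0552), Gabarap 0.28 (edgeR adjusted p = 0.114), Gabarapl1 0.08 (edgeR adjusted p = 0.712) and Map1lc3a -0.21 (edgeR adjusted p = 0.253). Npc1 read -0.39 (edgeR adjusted p = 0.0573), Lamp2 -0.35 (edgeR adjusted p = 0.395) and Atp6v1f 0.08 (edgeR adjusted p = 0.643), and Cd63 and Atp6v0b turned negative. In the non-treated cultures, by contrast, Grn and Ctsd became lower calls with the offset, at -1.06 (edgeR adjusted p = 0.0361) and -0.75 (edgeR adjusted p = 0.0456), against 0.655% of all genes called.

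**Figure D4:**
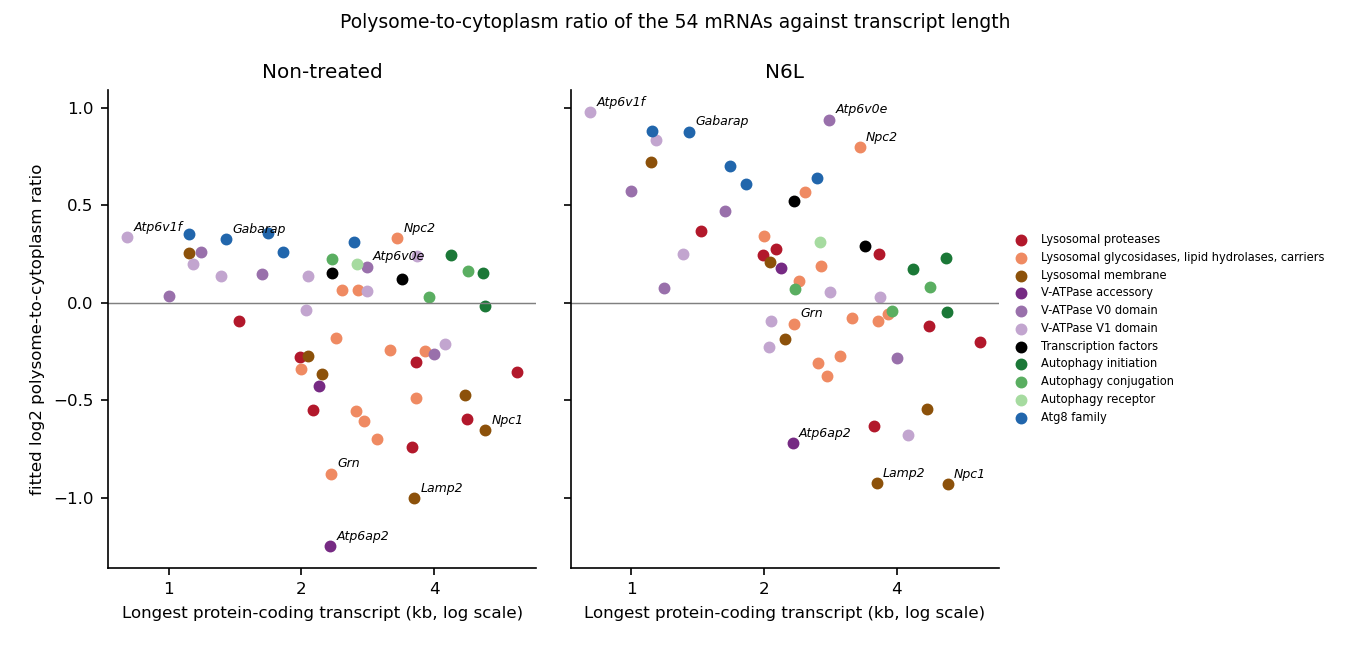
Fitted log2 polysome-to-cytoplasm ratio of the 54 mRNAs against the length of the longest protein-coding transcript (kb, log axis), in non-treated (left) and N6L cultures (right), coloured by role. The short Atg8 and V1 mRNAs reach 0.98 under N6L, the lumenal and membrane mRNAs of 2 to 4 kb lie mostly below 0 without N6L, and Atp6v0e and Npc2 stand above the other mRNAs of their length under N6L.

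A wider list of the pathway held 90 other genes, of which 83 were tested. In the cytoplasm 16 rose (19.3%, against 14.5% of all genes) and 2 fell (against 13.8% of all genes), with a median log2 difference of 0.33. Over all genes the cytoplasmic log2 difference and transcript length had a Spearman rho of 0.50, and genes over 4 kb had a median of 0.4. Values of the wider list are given without the length and GC offset, and the part of length in them was not tested. Autophagy genes made up 10 of the 16 rises: Atg9a, the membrane scramblase of the early autophagosome, rose by 1.46 ± 0.35 on the log2 scale (SE, edgeR adjusted p = 0.00956), from a mean of 5.19 ± 2.80 to 14.4 ± 2.75 CPM (SD, n = 3). Rb1cc1, the scaffold of the Ulk1 complex, rose by 0.95 ± 0.27 (SE, edgeR adjusted p = 0.0200) and Atg2b, a lipid transfer protein, by 0.91 ± 0.27 (SE, edgeR adjusted p = 0.0255). The falls were Vamp8, a SNARE of autophagosome fusion, with a log2 fold change of -0.73 ± 0.25 (SE, edgeR adjusted p = 0.0413), and Tmem192, a lysosomal membrane protein, with -0.55 ± 0.18 (SE, edgeR adjusted p = 0.0338).

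In the polysomes 8 of the 83 rose by edgeR (9.64%, against 6.01% of all genes) and 0 fell (against 3.66%). All 8 belonged to the 42 lysosomal genes tested, whose median was 0.40. None of the 32 other autophagy genes passed there by edgeR, although 9 had an unadjusted p under 0.05 (28.1%, against 26.5% of all genes). DESeq2 called 3 of the 32 higher, against 8.09% of all genes. The median of the 32 was 0.14. Their median index was -0.26, that of the 42 lysosomal genes 0.25, and no index in either group passed by edgeR or DESeq2. An unadjusted edgeR p under 0.05 was found for 4 of the lysosomal (9.52%) and 3 of the autophagy genes (9.38%). Over all genes the share was 7.73%, close to both. Over all genes the median index was 0.33 for transcripts under 2 kb and -0.33 for those over 4 kb. The part of length in the difference between the 2 groups was not tested. In non-treated cultures 7 of these 42 lysosomal genes had a ratio above 0, compared with 22 of the 32 autophagy genes and 53.7% of all genes.

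Some counts carry a limit of annotation. Ctsa, Map1lc3b, Gabarapl1, Grn, Npc1, Sqstm1 and Atp6v0b are among 15 members overlapped by a gene on the opposite strand, and the strand setting of the counting is not given in the sources used here, although the library kit keeps strand. Ctsd, Ctsl and Glb1 overlap another gene on the same strand, and Atp6v0c and Cd63 have named pseudogenes.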

How the data were processed

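Poly(A) RNA of 12 libraries was sequenced as 4 technical replicates each. Per the labels, the authors used bcl2fastq 2.18.0.12, STAR and HTSeq 0.5.3, and the build mm10 is named. The deposited files hold raw read counts per gene, not normalized. No source used here gives the annotation release or the counting options. Gene symbols, strand and transcript length came from GENCODE vM21 (50376 of 50600 genes matched), and promoter windows from RefSeq (GRCm38.p6).

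Technical replicates were summed, since a chi-square test over genes gave 1.016 to 1.044 per degree of freedom, little above sampling noise. The title and the description of 3 replicates of N6L cytoplasm 2 name different cultures. They differed from the fourth by 1.014 to 1.037 and from culture 1 by 11.959 to 12.141, and an alternative left them out.

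Counts were filtered with filterByExpr, scaled by TMM and fitted over the 12 libraries by the quasi-likelihood functions glmQLFit and glmQLFTest of edgeR 4.0.16 (R 4.3.3), with no block and 4 group means, each over 3 libraries, with Benjamini-Hochberg adjustment over 13889 genes and a limit of 0.05. SE is the log2 fold change divided by the square root of F. Ratios per culture are differences of log2 CPM with a prior count of 2. On simulated counts with 200 of 13889 genes changed per comparison, edgeR recovered 59% (cytoplasm), 53% (polysomes) and 16% (index) of the genes changed by 1 on the log2 scale.

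The 54 members, their roles, the wider list and the tests were chosen with earlier results of these data known. Full values were given to up to 2 rises and 2 falls per role in the cytoplasm, the 4 smallest p for the index, and Tfeb, Tfe3, Mcoln1, Sqstm1, Ulk1 and the Atg8 genes. From the wider list, the 3 largest cytoplasmic rises and falls past the limit with a mean of at least 10 CPM were named. Alternatives were RLE size factors, library totals, no filter, DESeq2 1.42.0, the conflicting replicates left out, only the groups compared, a length and GC offset (mgcv 1.9.3), blocks and leaving out each culture. Fractions of a culture are paired because they share a lysate. In the non-treated cultures both fractions of a culture deviated from their groups together, with r of 0.364, 0.452 and 0.645. In the N6L cultures r was lower, at 0.0368, 0.199 and 0.230.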

Additional observations from a re-analysis of the deposited data

How the results depend on the processing

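Shares of all genes called are given in brackets. Of the members, 6 were called in the cytoplasm (28.3%), 13 in a fit of the cytoplasmic libraries alone (42.2%) and 9 with the length and GC offset (27.1%). The count there was 15 with the replicate number as a block (46.2%) and 1 to 6 when each culture was left out (9.24% to 28.7%). In the polysomes 7 were called (9.67%), 11 with DESeq2 (14.6%), 11 with the replicate number as a block (14.8%), 1 in a fit of the polysomal libraries alone (2.46%), 13 with the length and GC offset (20.1%), and 0 to 8 with each culture left out (1.04% to 11.2%). The replicate numbers 1 and 2 do not pair the treatments (same-numbered deviations correlated by 0.228 and 0.0455 in the cytoplasm and 0.296 and 0.00756 in the polysomes), so these block fits share only a number. For the index the count of members was 0 under every setting run. Of all genes, 0.44% were called without a filter, 0.00709% without N6L culture 1 and 0.0% under every other setting. For polysomes against cytoplasm in N6L it was 14 (39.0%), with 22 under the culture block (53.7%), 10 with the offset (16.6%), 19 with block and offset (31.9%) and 4 to 17 with each culture left out (8.22% to 41.8%). In non-treated cultures it was 0 (0.209%), with 4 without a filter (2.5%), 1 with DESeq2 (1.97%), 2 with the offset (0.655%), 3 with the culture block (1.46%), 14 with block and offset (4.03%), and 0 to 1 with each culture left out (0.0% to 2.38%).

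Library totals alone shifted the median of all genes by 0.14 in the cytoplasm and by -0.13 for the N6L ratio, and the offset shifted the latter by -0.10. The members' median then read 0.15 in the cytoplasm, 0.0067 for the N6L ratio and -0.0686 for the non-treated ratio with library totals, and -0.0912 (N6L) and -0.0942 (non-treated) with the offset, or -0.0985 and -0.0987 with block and offset. The median index with block and offset was 0.19. With each culture left out, the medians ran from -0.0771 to 0.0824 in the cytoplasm, 0.17 to 0.32 for the index and -0.0478 to 0.0069 for the non-treated ratio.

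Among the N6L ratios called, and in the cytoplasm, directions turned as follows. With the offset, and with block and offset, the N6L ratio of Atp6v0b was -0.32 and -0.32, that of Cd63 -0.17 and -0.18, and that of Map1lc3a -0.21 and -0.20. In the cytoplasm the offset gave 0.15 for Tfeb, 0.52 for Map1lc3a, 0.17 for Gabarap and 0.10 for Gabarapl2. Library totals gave 0.14 for Tfe3, 0.0295 for Sqstm1 and 0.0114 for Gabarapl2, and the fit without a filter gave 0.038 for Tfe3. With each culture left out, Tfe3 ran from -0.0923 to 0.0352 and Sqstm1 from -0.36 to 0.0795. The causes were not tested. Over the named values, 179 of 240 kept direction and side of the limit when a culture was left out, as did 284 of 334 under the other settings.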
